A study of Mus musculus with 40 samples.

Results

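Cyp1b1 and 6 further genes of the aryl hydrocarbon receptor pathway (Cyp1a1, Ahr, Ahrr, Arnt, Tiparp and Aldh3a1) were followed across 10 short hairpin RNAs in 4T1 mouse mammary carcinoma cells. These 7 genes are 7 of the 23480 genes listed in each of the 2 deposited tables, and all 7 lay above the smallest value of both tables in at least 1 library. They were taken by symbol. The set was chosen by the level of Cyp1b1 in cells carrying hairpin 88943, which was far below that in cells carrying the other hairpins of its table, so its values in that contrast, and those of the other members, are given as a description with no test. A mean of 10 scaled reads (reads divided by the size factor of the library) was reached by 6 members in both tables, which entered the fits, and not by Cyp1a1.

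The aryl hydrocarbon receptor, encoded by Ahr, is a ligand-activated transcription factor held in the cytoplasm by a complex that includes the chaperone HSP90. After ligand binding it enters the nucleus, pairs with ARNT and binds xenobiotic response elements built around the core GCGTG, near genes such as Cyp1a1, Cyp1b1, Ahrr, Tiparp, Nqo1 and Aldh3a1. Products of Ahrr and Tiparp repress the receptor in turn, and CYP1B1 is a cytochrome P450 that oxidises polycyclic aromatic compounds and oestrogens in tissues outside the liver, the mammary gland among them.

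The study looked for off-target effects of hairpins by RNA sequencing of infected 4T1 cells. All cells carried a hairpin, and no uninfected or non-targeting group was analysed here. In the Slpi table, 66708 (selected with puromycin at 1 µg/ml) stood beside Slpi1U1, Slpi1U2, Slpi2 and Slpi4 (each selected with hygromycin at 500 µg/ml). In the Mgp table, 88943 (puromycin at 1 µg/ml) stood beside Mgp1, Mgp1U1, Mgp2 and Mgp1U3 (hygromycin at 500 µg/ml). Selection took 10 days on average. The number-only names are in the style of the TRC hairpin catalogue and the other 8 are taken here as shERWOOD designs, which is read from the names and the drug. Source, vector and drug coincide in these groups and cannot be told apart. The labels list 4 samples for each hairpin and the tables hold 2 columns for each, which carry no label tying them to single samples. Nothing states that these came from separate infections, so the error behind each p-value is that between the columns of a hairpin and could be technical alone.

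Libraries held 12176854 to 28533761 reads on genes in the Slpi table and 12082237 to 23307340 in the Mgp table. Slpi stood at 48.2 to 60.9 CPM (reads per 1000000 reads on genes of the library) under the 4 shERWOOD hairpins against it and 151 CPM under 66708. Mgp stood at 1.15 to 8.32 CPM under the 4 shERWOOD hairpins against it and 15.8 CPM under 88943. The columns of Mgp2 differed from each other the most, with a chi-square of 12.1 per degree of freedom over genes against 1.57 to 5.99 for the other hairpins. The epithelial markers Epcam, Cdh1, Krt8 and Krt18 were at 53.4 CPM or more in every library, Krt7 at 155 or more and Krt19 at 33.1 or more. Of the leukocyte markers, Ptprc reached at most 0.262 CPM and Cd3e had no read in 16 libraries, while Cd68 was at 3.33 to 8.17 CPM. The leukocyte sum, mostly Cd68, was 3.61 to 4.15 CPM in 66708 against 5.40 to 8.75 in its shERWOOD libraries, and 7.28 to 7.77 in 88943 against 4.07 to 5.47. Alb, of hepatocytes, had no read in 16 of 20 libraries. Summed CPM of the 6 epithelial markers was 2251 to 2296 in 66708 against 1996 to 2143 in its shERWOOD libraries, and 2577 to 2583 in 88943 against 1533 to 1720. The sum hides that Krt7 and Krt19 were lower in 66708, with log2 differences of -0.52 and -0.63. The other 4 markers were higher there, and all 6 were higher in 88943. The summed fibroblast markers, nearly all Pdgfra, were at 54.8 to 57.3 CPM in 88943 against 24.9 to 34.1. The part of these differences in the results on the members was not tested. In RNA from a bulk culture, fewer expressing cells and less RNA per cell cannot be told apart.

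The promoters of 3 genes are shown because their genes carry the results below: Cyp1b1 and Tiparp as receptor targets that were both lowest in 88943, and Ahrr as a target that was highest there. Each runs from 250 bases before to 50 bases after the transcription start, 5′ to 3′ on the gene's strand, taken from RefSeq on GRCm38.p6. Capitals mark GCGTG, read as CACGC where the match is on the opposite strand. The Cyp1b1 window is chr17:79715012-79715311 on the minus strand, Tiparp's is chr3:65528197-65528496 on the plus strand and Ahrr's is chr13:74292282-74292581 on the minus strand.
Cyp1b1: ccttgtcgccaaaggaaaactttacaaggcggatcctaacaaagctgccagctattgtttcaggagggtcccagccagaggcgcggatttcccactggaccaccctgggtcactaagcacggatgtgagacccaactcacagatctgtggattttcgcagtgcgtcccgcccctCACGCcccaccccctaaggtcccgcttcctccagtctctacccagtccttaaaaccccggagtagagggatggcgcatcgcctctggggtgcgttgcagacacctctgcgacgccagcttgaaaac
Tiparp: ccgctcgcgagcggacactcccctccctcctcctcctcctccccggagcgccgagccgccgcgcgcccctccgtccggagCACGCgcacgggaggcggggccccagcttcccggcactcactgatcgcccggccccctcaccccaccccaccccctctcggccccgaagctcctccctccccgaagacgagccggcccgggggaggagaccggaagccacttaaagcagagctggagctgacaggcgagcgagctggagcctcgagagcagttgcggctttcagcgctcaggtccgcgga
Ahrr: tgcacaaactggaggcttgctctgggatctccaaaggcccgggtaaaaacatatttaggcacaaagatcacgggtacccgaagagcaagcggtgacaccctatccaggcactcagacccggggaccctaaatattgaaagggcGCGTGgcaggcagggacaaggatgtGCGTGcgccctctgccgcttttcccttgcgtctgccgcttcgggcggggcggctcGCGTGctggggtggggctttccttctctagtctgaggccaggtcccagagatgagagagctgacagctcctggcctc

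The core GCGTG, searched on both strands, was found once in the Cyp1b1 window at -76 and once in the Tiparp window at -170, in both on the opposite strand. Ahrr held it 3 times, at -107, -82 and -27, and the windows of Arnt (-29) and Cyp1a1 (-54) held it once each. Of 32851 RefSeq promoters of this length, 32.4% held GCGTG and 11.1% held it at 2 or more places. The longer TNGCGTG, which contains GCGTG, was found in Ahrr alone among these 5 windows and in 5.07% of all promoters. A match to these letters describes the window and is no evidence of binding. Ahr and Aldh3a1 had no entry in the promoter table.

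Cyp1b1 is transcribed from the minus strand of chromosome 17 (GRCm38, 79701537 to 79715061, ENSMUSG00000024087; 3 exons). Its level spanned 10.2-fold across the 10 hairpins, between a mean of 6.06 CPM in 88943 and 61.8 CPM in Mgp1U3. In 88943 the 2 libraries were at 5.43 and 6.69 CPM. Both were below every other library of either table. The shERWOOD hairpins against Slpi came next: Slpi2 at 12.9 and 10.1 CPM, Slpi1U2 at 13.9 and 13.2, Slpi4 at 14.6 and 13.7, and Slpi1U1 at 16.3 and 15.1. In 66708 the libraries were at 25.1 and 32.1 CPM, above all 8 of these. The shERWOOD hairpins against Mgp were highest, with Mgp1U1 at 43.9 and 43.4 CPM, Mgp1 at 49.1 and 51.4, Mgp2 at 54.7 and 53.2, and Mgp1U3 at 58.2 and 65.3. Without 88943, the line that chose the gene, the range over the other 9 hairpins was 5.37-fold, between Slpi2 and Mgp1U3. The shERWOOD hairpins against Mgp, at its upper end, were the other side of the contrast that chose the gene.

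**Figure D1:**
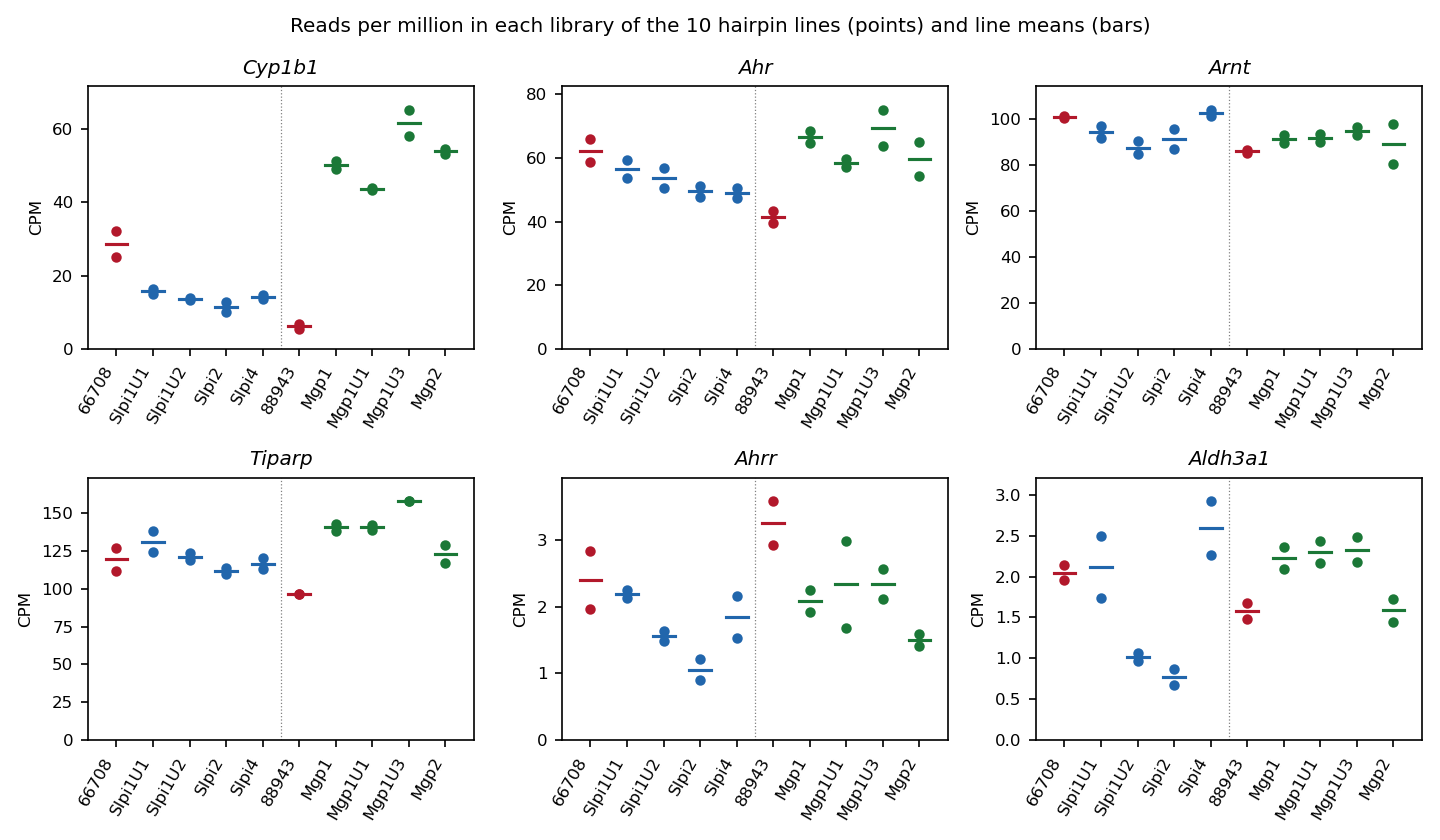
Level of the 6 members other than Cyp1a1 in each library, in CPM (linear axes starting at 0), for the 10 hairpins, with points for the 2 libraries of each hairpin and a bar for their mean. Cyp1b1 is at 5.43 and 6.69 CPM in 88943, at 25.1 and 32.1 CPM in 66708 and at 43.4 CPM or more in the shERWOOD libraries against Mgp, whereas Arnt differs little between hairpins.

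In 88943 the Cyp1b1 libraries held 88.7 and 109 reads on the scale of the authors' size factors, against 774 to 1178 in the 8 shERWOOD libraries of that table, which is 9.50-fold lower on the means (log2 difference -3.21 ± 0.11, standard error). This is the value that chose the gene; 67.6% of the 12295 genes tested there passed the threshold. In the Slpi table, which did not choose it, Cyp1b1 moved the other way. The 66708 libraries held 439 and 558 scaled reads against 167 to 263 in the shERWOOD libraries, and the log2 difference was 1.19 ± 0.09 (limma voom, adjusted p = 1.12e-08; 2.22-fold on the means). Leaving out 1 library at a time gave differences of 0.97 to 1.32. Of the 12332 genes tested in the Slpi table, 53.2% passed the threshold of 0.05, 28.5% higher and 24.7% lower in 66708, so passing it did not set Cyp1b1 apart.

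Cyp1b1 also differed between hairpins of one source in the Mgp table. Over the 4 shERWOOD hairpins there, the moderated F-test gave an adjusted p of 4.30e-04, in a table in which 25.4% of genes passed. Mgp1U3 was 1.42-fold above Mgp1U1 (log2 difference between Mgp1U3 and Mgp1U1 0.50 in size, adjusted p = 3.39e-04), a pair in which 4.9% of genes passed. Mgp1U3 was also above Mgp1 and Mgp2, and Mgp2 was above Mgp1U1, with adjusted p between 0.00994 and 0.0453. In these pairs 5.65%, 18.9% and 6.14% of genes passed. Mgp1 did not pass against Mgp1U1 (difference 0.19 ± 0.07, adjusted p = 0.116) or against Mgp2 (adjusted p = 0.295), pairs in which 7.25% and 11.8% of genes did. Among the 4 shERWOOD hairpins against Slpi the F-test gave an adjusted p of 0.207, where 6.75% of genes passed, and none of the 6 pairs passed. In those pairs few genes did: 0.584% for Slpi1U1 against Slpi1U2, 3.85% for Slpi1U1 against Slpi2, 2.58% for Slpi1U1 against Slpi4, 1.11% for Slpi1U2 against Slpi2, 5.41% for Slpi1U2 against Slpi4 and 4.19% for Slpi2 against Slpi4. The widest of them, Slpi1U1 minus Slpi2, was 0.44 ± 0.14 on the log2 scale (adjusted p = 0.107).

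The level of Cyp1b1 differed between the tables as well. It was 13.7 ± 1.72 CPM (SD, n = 4 hairpin means) under the shERWOOD hairpins against Slpi and 52.4 ± 7.56 CPM (SD, n = 4 hairpin means) under those against Mgp, a ratio of 3.82. All 8 libraries of the latter, at 43.4 to 65.3 CPM, were above all 8 of the former, at 10.1 to 16.3. Of the 12185 genes tested in both tables, 7.24% showed that separation in that direction and 9, Cyp1b1 included, had as high a ratio. The 8 libraries of the shERWOOD hairpins against Mgp are the other side of the contrast that chose Cyp1b1. Its place among these genes is therefore a description only. Among the other targets listed, Serpinb2 (ratio 8.49), Gsta1 (4.90) and Gsta2 (6.4) separated as well. In the Slpi shERWOOD hairpins these had few reads, at means of 0.585, 0.584 and 0.0601 CPM. None of them was tested in the Slpi table, so the 7.24% does not cover them. The listed targets tested in both tables, members aside, did not separate that way. Their ratios were 1.12 for Nqo1, 0.988 for Nfe2l2, 0.860 for Slc7a5 and 0.705 for Scin. No other member separated: the ratio was 1.22 for Ahr, 1.17 for Tiparp, 0.976 for Arnt, 1.24 for Ahrr and 1.30 for Aldh3a1. Each table has its own normalization, so no test was run across them, and table and targeted gene cannot be told apart. Between the puromycin-selected lines, Cyp1b1 was 4.72 times as high in 66708 as in 88943, Ahr 1.5 times, Aldh3a1 1.30 times, Tiparp 1.24 times and Arnt 1.18 times, while Ahrr was at 0.739 times its level in 88943.

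Ahr, which encodes the receptor itself (chromosome 12, 35497974 to 35535038, minus strand, 11 exons), had the same lowest and highest hairpin as Cyp1b1 over a narrower range. It was lowest in 88943, at 39.7 and 43.3 CPM, and highest in Mgp1U3, at 63.7 and 75.2 CPM, 1.67-fold apart on the means. In 66708 it was at 58.6 and 66.0 CPM, against hairpin means of 49.1 CPM in Slpi4, 49.5 in Slpi2, 53.6 in Slpi1U2 and 56.5 in Slpi1U1. On the scale of the size factors both 66708 libraries, at 1025 and 1148 reads, were above the 8 others, at 787 to 959. In CPM the lower of them fell below 1 Slpi1U1 library, at 59.3. The log2 difference was 0.36 ± 0.06 (limma voom, adjusted p = 8.65e-05; 1.27-fold). In 88943 Ahr held 648 and 704 scaled reads against 971 to 1355, with no overlap, a log2 difference of -0.73 ± 0.07. Among the Mgp shERWOOD hairpins its F-test was at the threshold (adjusted p = 0.0487), a test that 25.4% of genes passed. Of the pairs 1 passed, Mgp1U3 over Mgp2 (adjusted p = 0.0448), where 18.9% of genes passed. That F-test ranged from 0.00117 to 0.183 over the alternatives run.

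Arnt, the partner of the receptor (chromosome 3, 95434388 to 95497240, plus strand, 22 exons), was the most even member. Its hairpin means lay between 85.9 CPM in 88943 and 103 CPM in Slpi4, a range of 1.2-fold. Between shERWOOD hairpins 1 pair passed, Slpi4 over Slpi1U2 (0.26 in size on the log2 scale, limma voom, adjusted p = 0.0260). In that pair 5.41% of genes passed. The 66708 libraries held 1756 and 1767 scaled reads against 1369 to 1724, and the log2 difference was 0.20 ± 0.05 (adjusted p = 0.00295; 1.14-fold). With libraries scaled to their total reads this fell to 0.11 (adjusted p = 0.0640). In CPM the 66708 libraries, at 100 and 102, overlapped those of Slpi4, at 101 and 104. In 88943 the libraries held 1412 and 1388 scaled reads against 1446 to 1740 (log2 difference -0.23 ± 0.05; -0.09 with total reads as the scale). In CPM, at 86.4 and 85.4, they overlapped Mgp2, at 80.6 and 97.9.

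Tiparp, a mono-ADP-ribosyltransferase induced by the receptor that dampens its activity (chromosome 3, 65528410 to 65555518, plus strand, 6 exons), was the most abundant member per length, at 22.2 to 36.2 CPM per kb of exon over the hairpins. Per kb, Arnt was at 10.7 to 12.8, Ahr at 6.73 to 11.3 and Cyp1b1 at 1.04 to 10.6 CPM. Tiparp was at 96.8 CPM in both 88943 libraries, below all 18 others, which ran from 110 CPM in Slpi2 to 158 CPM in Mgp1U3. Its log2 difference in 88943 was -0.66 ± 0.04 (1.59-fold lower on the means). In 66708 it was at 112 and 127 CPM, inside the range of the Slpi shERWOOD libraries. The log2 difference there was 0.09 ± 0.05 and did not pass (adjusted p = 0.140). It was -0.0046 without 66708 replicate 2 and 0.17 without 66708 replicate 1 (adjusted p = 0.0316). Among the Mgp shERWOOD hairpins Tiparp passed the F-test (adjusted p = 4.43e-04), as 25.4% of genes did. Mgp1U3 was above Mgp2 (adjusted p = 1.37e-04) and above Mgp1, pairs in which 18.9% and 5.65% of genes passed. Mgp1 and Mgp1U1 were each above Mgp2, pairs in which 11.8% and 6.14% of genes passed. Cyp1b1 and Tiparp were thus both highest in Mgp1U3, but Mgp2, lowest for Tiparp, was above Mgp1U1 for Cyp1b1. The Tiparp exons overlap those of an antisense gene over 5.12% of their length.

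Ahrr, the repressor that competes with the receptor for ARNT (chromosome 13, 74211118 to 74292331, minus strand, 11 exons), had 16 to 81 reads a library. Its hairpin means ran from 1.05 CPM in Slpi2 to 3.25 CPM in 88943, so that the line lowest for Cyp1b1 was highest for Ahrr. The 88943 libraries, at 3.58 and 2.92 CPM, overlapped Mgp1U1, at 1.68 and 2.99 (log2 difference 0.53 ± 0.18). In 66708, at 1.96 and 2.84 CPM against hairpin means of 1.05 to 2.19 CPM, the log2 difference was 0.73 ± 0.19 (adjusted p = 0.00474). Without 66708 replicate 2 it was 0.39 (adjusted p = 0.335). On the scale of the size factors the lower 66708 library, at 34.3 reads, was inside the range of the 8 others, 14.7 to 36.4.

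Aldh3a1, an aldehyde dehydrogenase and a classical receptor target (chromosome 11, 61207537 to 61218421, plus strand, 11 exons), had 12 to 61 reads a library. It was lowest in Slpi2, at 0.673 and 0.866 CPM, and highest in Slpi4, at 2.26 and 2.92 CPM. That pair passed (1.72 in size on the log2 scale, adjusted p = 0.00284, where 4.19% of genes passed). Slpi4 over Slpi1U2 and Slpi1U1 over Slpi2 passed too (adjusted p = 0.0161 and 0.0215), where 5.41% and 3.85% of genes did. In 66708, at 1.96 and 2.14 CPM, it overlapped the shERWOOD libraries, and the log2 difference of 0.62 ± 0.20 (adjusted p = 0.0155) came to 0.55 without 66708 replicate 2 (adjusted p = 0.185). In 88943, at 1.48 and 1.67 CPM, it overlapped Mgp2, at 1.72 and 1.45 (log2 difference -0.52 ± 0.19).

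Cyp1a1, the enzyme most used as a readout of receptor activation (chromosome 9, 57687928 to 57703824, plus strand, 7 exons), was close to absent from the counts. It had 14 reads over all 20 libraries, no read in 11 of them and at most 2 in any one. A count of 0 allows up to 3 reads, or 0.105 to 0.248 CPM depending on the library, for counting error only. A difference in Cyp1a1 was not detectable at this depth.

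**Figure D2:**
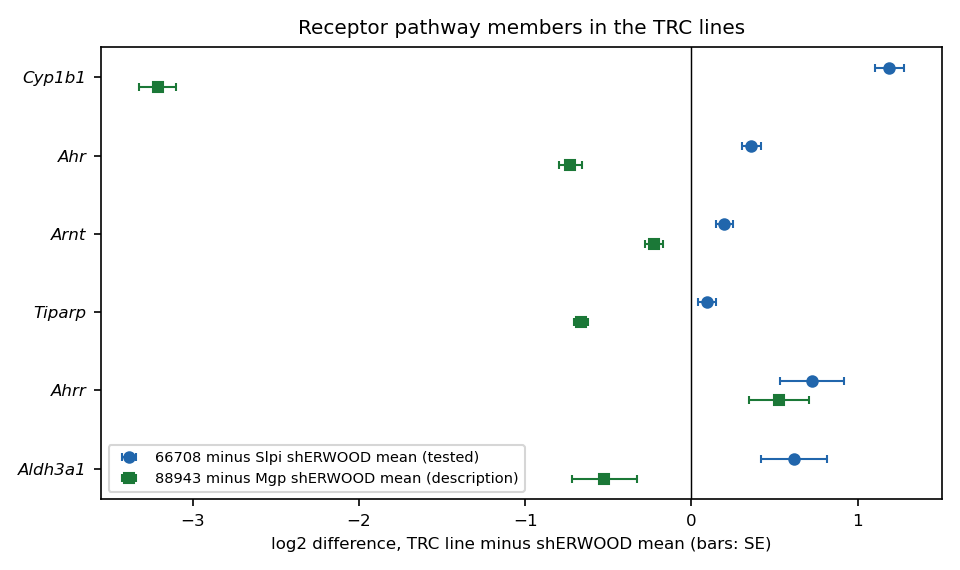
Log2 difference of the 6 members tested, 66708 minus its 4 shERWOOD hairpins and 88943 minus its 4, with bars for the standard error. Cyp1b1 is at 1.19 in the first and -3.21 in the second, and Ahr at 0.36 and -0.73, while Ahrr is above 0 in both.

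Across the members, 5 of 6 tested rose in 66708 (Cyp1b1, Ahr, Ahrr, Arnt and Aldh3a1), none fell, and Tiparp did not pass. Their median log2 difference was 0.49 against 0.01 over all genes tested, and 28.5% of all genes passed in that direction. Both 66708 libraries were above all 8 others for 3 members (Cyp1b1, Ahr and Arnt) and below for none, where 24.4% of all genes were above, 21.1% below and 45.5% on either side. With hairpin means as samples, 66708 is 1 value against 4 and is assumed to vary like the shERWOOD hairpins. In that fit Cyp1b1 and Ahr passed (adjusted p = 8.96e-04 and 0.0147) and Ahrr, Arnt and Aldh3a1 did not (0.190, 0.130 and 0.440). Rn45s, the ribosomal RNA precursor, took 2.31 to 2.77% of reads in 66708 against 1.27 to 1.87% in the shERWOOD libraries of that table, and its part in these values was not tested. In 88943, 4 members (Cyp1b1, Ahr, Arnt and Tiparp) lay below all 8 shERWOOD libraries on the scale of the size factors, where 29.5% of all genes did, and none lay above, where 27.2% did (56.7% on either side). The median there was -0.59 against -0.01 over all genes. Nothing is read from that count, since the same contrast chose Cyp1b1.

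**Figure D3:**
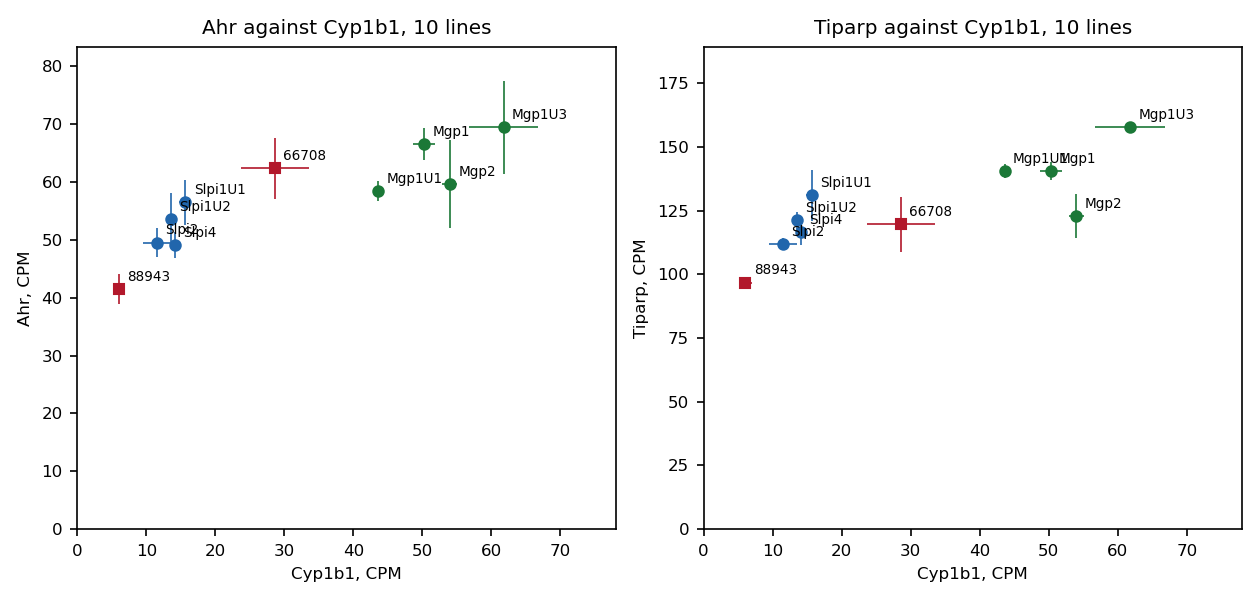
Mean level of Ahr and of Tiparp (vertical, CPM, from 0) against Cyp1b1 (horizontal, CPM) for the 10 hairpins, with bars for the SD of 2 libraries, squares for 66708 and 88943 and circles for the shERWOOD hairpins (blue against Slpi, green against Mgp). Both genes are lowest in 88943 and highest in Mgp1U3, and Mgp2 is low for Tiparp given its Cyp1b1 level of 54.0 CPM.

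Whether Cyp1b1 moved with other targets of the receptor was described over the 10 hairpin means of log2(CPM + 1). These points share their table, source and drug, and are no independent draws. Pearson's r with Cyp1b1 was 0.911 for Ahr (Spearman's rho 0.903), and 3.21% of the 10554 genes compared had a higher r. For Tiparp it was 0.834 (rho 0.842), with 7.63% of genes higher. For the hairpin target Slpi it was 0.830, with 7.79% higher. It was 0.644 for Nqo1 (16.4% higher), 0.471 for Aldh3a1, 0.162 for Arnt (33.1% higher) and -0.0302 for Ahrr. These shares include 88943, whose Cyp1b1 level chose the set, so they are a description. Without 88943 alone, r was 0.866 for Ahr and 0.739 for Tiparp, and no shares were computed. Without 88943 and Mgp1U3, the hairpins farthest from the median Cyp1b1 level, r was 0.827 for Ahr, 0.656 for Tiparp, 0.381 for Nqo1 and -0.215 for Arnt. For Ahrr r went from -0.0302 over all 10 hairpins to 0.498 without 88943. The receptor gene itself and Tiparp thus had the highest r among the members, and the low-count targets Ahrr and Aldh3a1 had lower values.

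The 5 genes whose pattern was nearest to Cyp1b1 over the 10 hairpins were Ndufaf4 (r = 0.995), D19Bwg1357e (0.991), Noc3l (0.989), Nol10 (0.988) and Dcaf13 (0.986), none of them on the lists of the pathway. Ndufaf4 was at 42.0 CPM in 88943, 51.7 to 61.1 CPM in the Slpi shERWOOD hairpins, 74.6 CPM in 66708 and 92.3 to 102 CPM in the Mgp shERWOOD hairpins, the same order of groups as Cyp1b1. Without 88943 the 5 were Prl2c2 (0.994), Rrn3 (0.993), Ndufaf4 (0.993), Ept1 (0.989) and Slpi (0.988), with 1 gene shared. Slpi is the gene targeted in one of the tables, at 453 to 586 CPM in the shERWOOD hairpins against Mgp and 48.2 to 60.9 CPM in those against Slpi. Prl2c2 has near-identical copies, and its count is uncertain.

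Of 11 genes of the receptor complex and its partners, Ahr and Arnt included, 9 were tested in each table. In 66708, 4 rose, 2 fell and 3 did not pass, near the 53.2% of all genes that passed, with a median log2 difference of 0.08. With total reads as the scale 2 rose and 3 fell, and the median was -0.0049. Leaving out Ahr and Arnt, on the size factors, 2 of 7 rose and 2 fell, with a median of 0.04. Of the chaperone genes, Hsp90ab1 rose by 0.20 (adjusted p = 1.34e-04; 0.133 with hairpin means as samples) and Hsp90aa1 fell by 0.24 (adjusted p = 4.29e-05). The coactivator gene Ncoa2 fell by 0.20 (adjusted p = 0.00375), and its adjusted p was 0.0504 without 66708 replicate 2. Hif1a, another partner of ARNT, rose by 0.15 (adjusted p = 0.00930), but did not pass with total reads as the scale (adjusted p = 0.267) or without 66708 replicate 2 (adjusted p = 0.360). In 88943, leaving out Ahr and Arnt, 2 of 7 passed as higher and 4 as lower, near the 67.6% of all genes that passed, with a median of -0.13. Here Hsp90aa1 was at -0.72, the HSP90 co-chaperone Ptges3 at -0.53 and Hif1a at -0.28, while the coactivator gene Ncoa1 was at 0.43.

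Of 15 genes listed as targets of the xenobiotic response, 8 were tested for 66708, 4 of them members. Of the 4 that are not members, 3 rose and 1 fell, with a median log2 difference of 0.20. Of all 8, members included, 6 rose, 1 fell and 1 did not pass, with a median of 0.40. Of all genes 28.5% rose and 24.7% fell (median 0.01). With hairpin means as samples 2 rose and none fell, and with total reads as the scale 4 rose and 1 fell. Nqo1, the quinone reductase, rose from 207 to 298 scaled reads on the means (log2 difference 0.52 ± 0.08, adjusted p = 4.39e-05). Scin, an actin-severing protein, rose by 0.27 (adjusted p = 0.0334) and Nfe2l2, the regulator of antioxidant genes, by 0.14 (adjusted p = 0.0105), but with total reads as the scale neither passed (adjusted p = 0.142 and 0.352). Slc7a5, an amino acid transporter that carries the ligand precursor tryptophan, fell by 0.34 (adjusted p = 9.84e-06; 0.225 with hairpin means as samples).

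Beside the members, 6 genes of the list were tested in 88943, with a median log2 difference of -0.45. Of these 2 passed as higher and 4 as lower, where 32.6% and 34.9% of all genes did, and nothing is read from that count since the contrast chose the set. Nqo1 was 1.57-fold lower (-0.65) and Slc7a5 higher (0.69), each opposite in sign to 66708. Serpinb2, the plasminogen activator inhibitor PAI-2, had 1 read in each 88943 library against 36 to 145 in the shERWOOD libraries, and entered the fit through the latter alone. Summed over libraries and scaled to depth, the shERWOOD level was 97.9 times that of 88943 (95% exact interval for counting error 27.0 to 810). The glutathione transferase gene Gsta1 was 4.47-fold lower (-2.08), though its near-identical copy Gsta2 makes its count uncertain. Its 0.704 CPM in 88943 was not below the 0.529 CPM of 66708 or the 0.584 CPM of the shERWOOD hairpins against Slpi. Only the shERWOOD hairpins against Mgp were higher, at 2.86 CPM. Scin was higher in both puromycin-selected lines, at 0.52 in 88943.

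**Figure D4:**
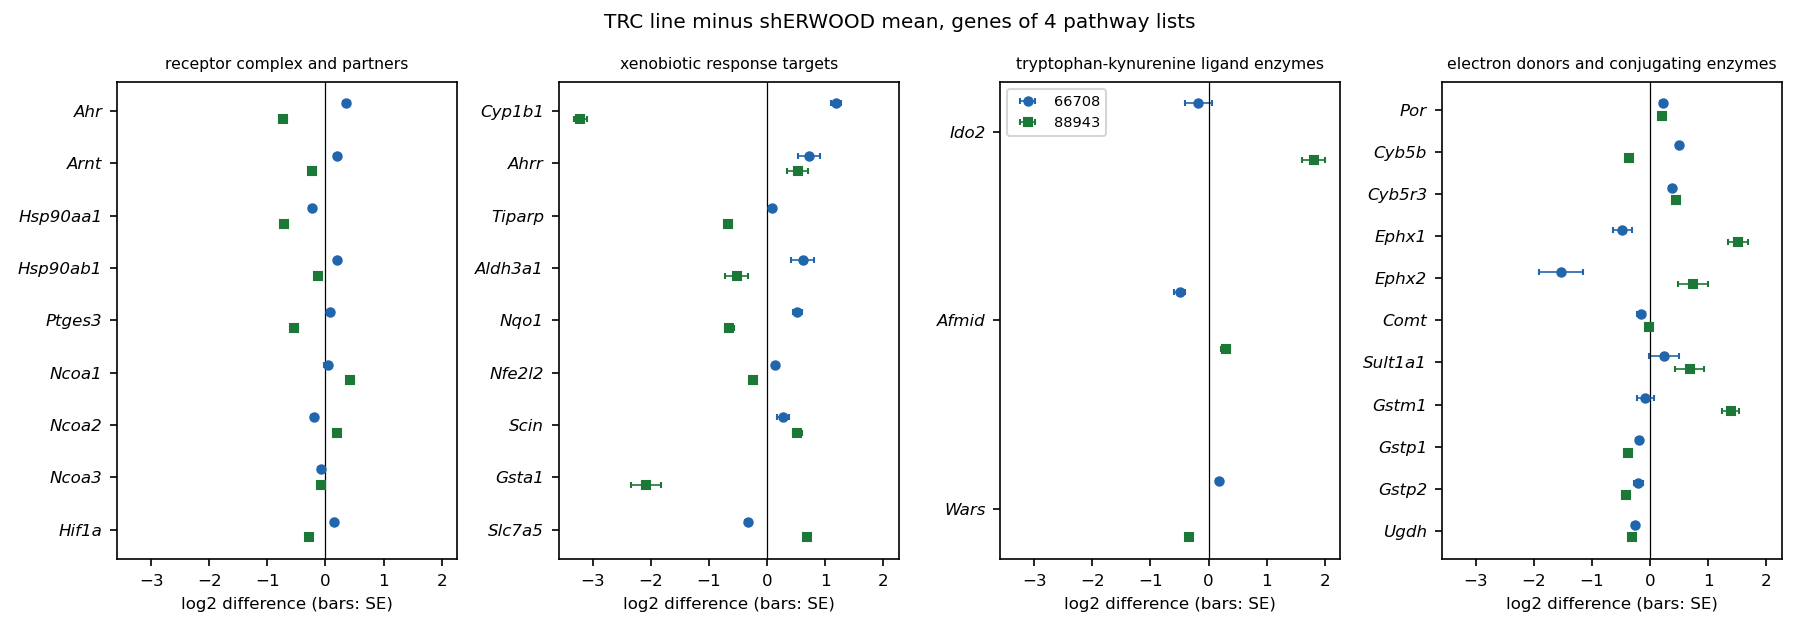
Log2 difference of each tested gene of 4 lists (receptor complex, targets, tryptophan-kynurenine enzymes with the tRNA synthetase gene Wars, electron donors and conjugating enzymes) in 66708 and in 88943, with bars for the standard error and a line at 0 (Serpinb2, with 1 read in each 88943 library, is left out). Nqo1 is at 0.52 and -0.65 and Slc7a5 at -0.34 and 0.69, on opposite sides in the 2 contrasts.

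Among the 102 cytochrome P450 genes listed, 8 had no read in any library and 15 were tested in both tables. The place of Cyp1b1 among these 15, by mean CPM per kb of exon, differed between groups: rank 3 in the shERWOOD hairpins against Mgp (8.97), rank 4 in 66708 (4.90), rank 8 in the shERWOOD hairpins against Slpi (2.35) and rank 12 in 88943 (1.04). Over all 20 libraries Cyp51, a sterol demethylase, was at 41.9, Cyp20a1 at 10.8 and Cyp4f16 at 6.23. Cyp4f genes have close paralogs, and that count is uncertain. Of the CYP1 family, Cyp1b1 passed the minimum and Cyp1a1 and Cyp1a2 did not.

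**Figure D5:**
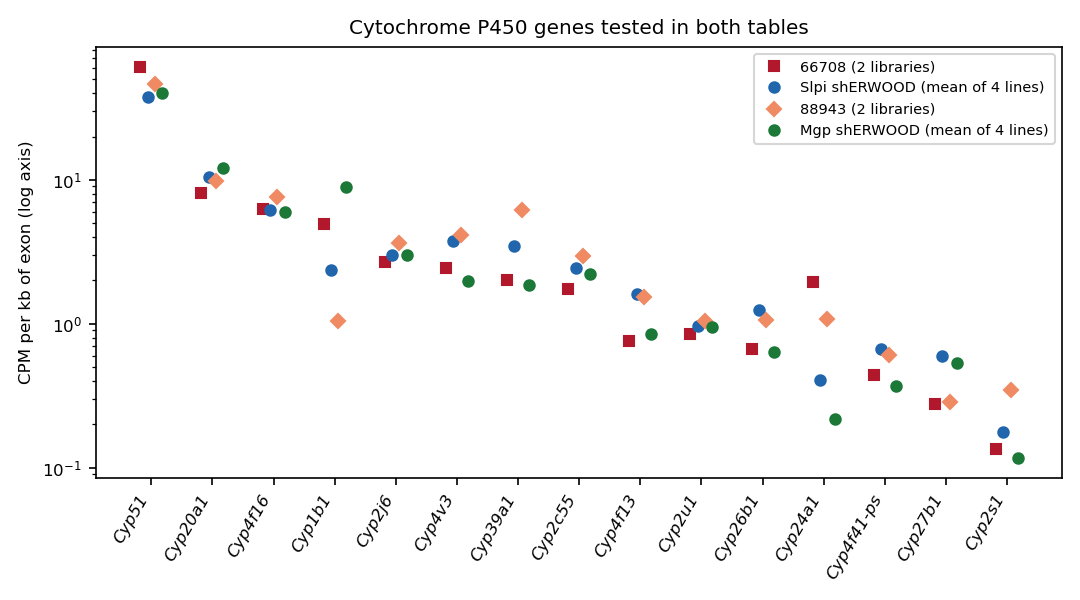
Mean level of the 15 cytochrome P450 genes tested in both tables, in CPM per kb of exon on a log axis, for 66708, 88943 and the 2 sets of shERWOOD hairpins. Cyp51 is the highest throughout, at 41.9 over all 20 libraries, and Cyp1b1 is lowest in 88943 and highest in the shERWOOD hairpins against Mgp.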

How the data were processed

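RNA from 4T1 cells carrying 1 of 10 hairpins was sequenced. Bowtie2, HTSeq and DESeq on mm10 are named in the submitters' processing notes, without versions. The annotation and strand setting: not given in the sources used here. The authors deposited 2 tables of variance-stabilized, log2-like values, normalized separately. Squaring the difference between 2 to the power of a value and 2 to the power of the table's smallest value, and dividing it by the former, gave whole multiples of 1 read within 0.001 for every value, at 12082237 to 28533761 reads a library, and the size factors.

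Recovered reads were fitted with limma 3.58.1 (voom, R 4.3.3) on all 10 columns of a table, without the replicate number, for genes averaging 10 scaled reads or more. Tests were two-sided, adjusted over all genes tested by Benjamini-Hochberg, with a threshold of 0.05. A test on the deposited log2 scale is an alternative, since its minimum leaves out low members. Other alternatives were the filter, the library scale, the replicate block, hairpin means and leaving out libraries. On simulated counts for 12347 genes, 95% of 2-fold and 67% of 1.5-fold changes were recovered in the 66708 comparison. The simulation gave all shERWOOD hairpins the same mean and a fixed spread, and changed few genes. In the data 6.75% of genes passed the F-test among the Slpi shERWOOD hairpins and 53.2% passed in 66708. The recovery therefore need not hold for these data. CPM are over all recovered reads. Exon lengths come from GENCODE M21.

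Members and lists were chosen with earlier results of these data known. Named were every member, up to 4 called genes per list and contrast with the largest difference, and the 5 genes most correlated with Cyp1b1. Cyb5a was not analysed here, and 1 gene of the receptor complex list is not reported here.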

Additional observations from a re-analysis of the deposited data

Results flagged for a closer look

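Cyp1b1 was 1.19 (log2) higher in 66708 and at -3.21 in 88943, and both libraries of each line lay on that side of all 8 shERWOOD libraries of their table. Ahr was at 0.36 and -0.73 in the same way on the scale of the size factors. Arnt was at 0.20 and -0.23 on that scale, but its 66708 value did not pass with total reads as the scale. These differences between the lines were not tested, since the tables were normalized separately.

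Aldh3a1 had 1 hairpin far from the others in the Mgp table: Mgp2, at 1.59 CPM, against 2.22 to 2.33 CPM in the other shERWOOD hairpins. The gap exceeded the 95% limit of Dixon's test over 4 hairpin means. Chance flags about 1 in 20 such groups. The moderated F-test over these 4 hairpins did not pass (adjusted p = 0.199), and none of the 6 pairs did. Mgp2 held 38 and 21 reads of Aldh3a1, and its columns differed from each other the most of all hairpins.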

How the results depend on the processing

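In 66708, 6556 genes passed, 3511 higher and 3045 lower. With total reads as the library scale these were 2380 higher and 4293 lower, and in 88943 the split of 4014 higher and 4295 lower became 5599 and 2932. That scale moved the median of all genes by -0.09 and 0.14, and kept the sign of the members' differences in both, except that Tiparp in 66708 came to 0.0048, which is no direction. With hairpin means as samples 3667 (66708) and 5087 (88943) genes passed. Leaving out 1 library at a time gave 4417 to 6611 and 6736 to 8668. For differences among shERWOOD hairpins it gave 432 to 1369 (Slpi table, 833 in all; 1369 without Slpi1U1 replicate 2, and 432 to 473 without either library of Slpi2 or of Slpi4) and 1883 to 5145 (Mgp table, 3125 in all; 5145 without Mgp2 replicate 2, and 1883 to 2048 without replicate 2 of Mgp1, Mgp1U1 or Mgp1U3); the cause was not tested. Whether the column numbers pair the samples is not labelled. Correlations of deviations over the pairs of hairpins ran from -0.34 to 0.356 in the Slpi table and from -0.095 to 0.156 in the Mgp table. These do not settle it. With the replicate block 6180, 8309, 654 and 3711 genes passed. Tiparp in 66708, at 0.09, turned to -0.0046 without 66708 replicate 2 and passed at 0.17 without 66708 replicate 1. Cyp1b1 was at 0.58 in 66708 and -1.52 in 88943 on the deposited scale, which compresses low values. Ahrr and Aldh3a1 could not be tested at a mean of 50 reads or on that scale. Of the single values of members and like genes, 429 kept their call or moved by less than their spread, 17 lost and 3 gained a call, 10 moved and 1 reversed. Depth limited Cyp1a1, Ahrr and Aldh3a1.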

Other observations

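Beside Cyp1b1, 15 P450 genes were tested in the Slpi table. Of these 2 rose, 7 fell and 6 did not pass in 66708, with a median log2 difference of -0.36, where 28.5% of all genes rose and 24.7% fell. Beside Cyp1b1, 14 were tested in the Mgp table, and 9 passed as higher, 2 as lower and 3 did not pass in 88943, with a median of 0.45, where 32.6% of all genes passed as higher and 34.9% as lower. Cyp24a1, which inactivates vitamin D hormone, was higher in both puromycin-selected lines. It rose from 23.8 to 120 scaled reads on the means in 66708 (5.06-fold, limma voom, adjusted p = 4.00e-09) and was at 62.3 against 13.9 in 88943 (4.49-fold). Cyp27b1, which makes that hormone, fell from 24.98 to 12.4 in 66708 (adjusted p = 0.0148; 0.193 without 66708 replicate 2) and was at 11.98 against 24.5 in 88943. Both have few reads. Cyp4f13, with close paralogs, fell by 0.94 (adjusted p = 2.34e-05) and Cyp26b1, which degrades retinoic acid, by 0.80 (adjusted p = 0.00167; 0.0703 without 66708 replicate 2) in 66708, while Cyp2s1 was at 1.30 in 88943. Cyp39a1, a sterol hydroxylase, was at -0.72 in 66708 (adjusted p = 7.96e-05) and 1.64 in 88943.

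Among 11 electron donors and conjugating enzymes tested in each table, 3 rose and 5 fell in 66708, and 6 passed as higher and 4 as lower in 88943, beside the same shares of all genes. Ephx1, the microsomal epoxide hydrolase, fell by 0.48 in 66708 (adjusted p = 0.0211; 0.224 without 66708 replicate 2) and was 2.81-fold higher in 88943 (1.51). Ephx2, the soluble one and among the genes counted, was at 6.29 scaled reads in 66708 against 20.1 in its shERWOOD hairpins (log2 difference -1.53). In 88943 it was at 16.2 against 9.79 (0.73). In each table only the higher side reached the minimum of 10 scaled reads, so these values are a description. Gstm1, whose paralogs make its count uncertain, was 2.61-fold higher in 88943 (1.39). The electron donor Cyb5b rose by 0.49 in 66708 (adjusted p = 2.69e-08) and the reductase Cyb5r3 by 0.37 (adjusted p = 9.60e-06). The sulfotransferase Sult1a1 was at 0.68 in 88943. Of 9 genes on the tryptophan-kynurenine list 3 were tested in each table. Among them is Wars, which encodes the tryptophanyl-tRNA synthetase and not an enzyme of the kynurenine route. In 66708 Afmid fell by 0.50 (adjusted p = 2.62e-04) and Wars rose by 0.18 (adjusted p = 0.00328; 0.104 with total reads as the scale). In 88943 Ido2 was 3.59-fold higher (1.81), from 11.9 to 42.7 scaled reads on the means, Afmid was at 0.29 and Wars at -0.33. The Afmid exons overlap those of Gm20708 and of the antisense gene Tk1 over 46.6% of their length. With the strand setting not given, its count is uncertain.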
